A study of Caenorhabditis elegans with 2 samples.

Results

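Of the 2137 peaks that passed the irreproducible discovery rate (IDR) step in a chromatin immunoprecipitation experiment on tagged HMG-4, 592 lay on the X chromosome. This account concerns the 510 of them whose summit, the position of highest enrichment, was over 500 bp from the 5′ end of every annotated tRNA, snoRNA, snRNA, miRNA and rRNA gene. They are called the X members here, and the 82 other X peaks were left out by that distance. The same distance kept 1300 peaks on the autosomes, so the X members were 510 of 1810 such peaks in all. They are given beside those 1300 peaks throughout. Within the IDR list the rule used position and annotation only, but that list itself holds the strongest pooled peaks. Its lowest signal value, the authors' enrichment measure for each peak, was 129.8, so every signal value below is from peaks above that limit, on X and on the autosomes alike.

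Early embryos of Caenorhabditis elegans strain OP660 were collected at 0 hours by egg bleaching, and animals of mixed sex were used whole. The strain is an unc-119(tm4063) mutant that carries the integrated transgene wgIs660, which supplies a working unc-119(+) together with hmg-4 fused to the tags TY1, EGFP and 3xFLAG. The promoter of the fusion gene is not stated in the labels. An antibody against GFP was used on chromatin sonicated to fragments of 200 to 800 bp. There were 2 biological replicates in 1 group, without a second genotype, stage or treatment. No contrast between samples could therefore be tested, and counts, shares and medians are described for the pooled data and for each replicate. Peaks from whole embryos average over all cell types.

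HMG-4 is a worm homologue of SSRP1, a subunit of the histone chaperone FACT, which loosens and rebuilds nucleosomes as RNA polymerases and replication forks pass. The X chromosome of C. elegans is also the target of dosage compensation. In hermaphrodite embryos a condensin-containing complex, directed by SDC-2, binds both X chromosomes and lowers their transcription. It is first recruited at a limited number of X sites that share a short sequence motif, and it then spreads along X.

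The 8 letters GCGCAGGG form the core of that recruitment motif. They were searched on both strands in the 200 bp around each summit. The core occurred at 14 X members, 2.75% of the 510 (exact binomial 95% interval 1.51 to 4.56). It occurred at 0 of the 1300 autosomal peaks, where the same kind of interval reaches up to 0.283%. Cut into windows of 200 bp, X held the core in 0.0869% of 88594 windows. In 400 bp around each summit, the core was at 3.14% of X members and at 2 autosomal peaks (0.154%). A variant that differs by 1 letter, GCGAAGGG, was looked for after the sequences below had been read. It occurred at 13 X members (2.55%, interval 1.36 to 4.32), at 4 autosomal peaks (0.308%, interval 0.0839 to 0.786) and in 0.15% of the windows of X. Intervals cover counting error only.

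Both forms were found at 6 X members, and their 200-bp windows are shown because they place the matches next to each other. Sequences here are from the RefSeq genome of the same assembly as the files (WBcel235, called ce11), 5′ to 3′, and ranks order the X members by signal value. Capitals mark the core, the variant or their reverse complements.
Rank 6, upstream of F20B6.9, chrX:4209205-4209404, plus strand: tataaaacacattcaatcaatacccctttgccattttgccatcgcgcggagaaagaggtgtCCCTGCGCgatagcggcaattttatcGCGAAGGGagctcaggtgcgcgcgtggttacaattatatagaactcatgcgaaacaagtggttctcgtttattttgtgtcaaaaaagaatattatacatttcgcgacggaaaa
Rank 13, near W02H3.3, chrX:11094101-11094300, plus strand: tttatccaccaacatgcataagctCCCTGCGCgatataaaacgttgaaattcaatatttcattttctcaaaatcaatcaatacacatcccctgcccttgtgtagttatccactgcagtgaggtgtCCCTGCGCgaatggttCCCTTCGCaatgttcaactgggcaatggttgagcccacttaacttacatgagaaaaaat
Rank 15, upstream of nspc-17, chrX:14525831-14526030, plus strand: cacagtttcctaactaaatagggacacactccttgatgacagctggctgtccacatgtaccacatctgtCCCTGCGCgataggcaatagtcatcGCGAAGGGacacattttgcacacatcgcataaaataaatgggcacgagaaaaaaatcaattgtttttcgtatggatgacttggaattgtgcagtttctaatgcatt
Rank 23, in pks-1, chrX:5429460-5429659, plus strand: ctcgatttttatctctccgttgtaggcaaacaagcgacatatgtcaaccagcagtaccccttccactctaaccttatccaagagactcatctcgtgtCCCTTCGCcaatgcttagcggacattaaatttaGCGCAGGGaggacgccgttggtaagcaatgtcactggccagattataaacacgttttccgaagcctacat
Rank 30, in mom-1, chrX:6296417-6296616, plus strand: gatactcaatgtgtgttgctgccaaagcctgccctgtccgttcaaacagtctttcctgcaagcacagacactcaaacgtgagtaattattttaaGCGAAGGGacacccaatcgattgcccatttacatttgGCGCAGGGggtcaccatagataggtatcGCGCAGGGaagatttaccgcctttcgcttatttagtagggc
Rank 98, in Y41G9A.17, chrX:2996991-2997190, plus strand: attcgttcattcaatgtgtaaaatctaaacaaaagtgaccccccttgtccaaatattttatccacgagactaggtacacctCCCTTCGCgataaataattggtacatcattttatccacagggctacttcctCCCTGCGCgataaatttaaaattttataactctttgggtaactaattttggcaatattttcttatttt
Each of these 6 windows held 2 or 3 matches. At ranks 6 and 15 the core on the minus strand and the variant on the plus strand were separated by 18 and 17 bases. The smallest distance between neighbouring matches was 8 bases at rank 13 and 43 bases at rank 98. Of the 14 members with the core, 6 (42.9%) also held the variant, against 7 of the 496 members without the core (1.41%). The variant was chosen after windows with the core had been read, so this difference partly repeats that choice. Together 21 members (4.12%) held one form or the other.

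Shorter stretches at 5 of the 8 remaining core members are shown for the bases beside the core, which is in capitals. The summit at rank 125 lay 42 bp downstream of the 5′ end of the non-coding RNA gene M79.12, and 3375 bp upstream of sdn-1.
Rank 79, at R04E5.9, chrX:8811089-8811128, minus strand: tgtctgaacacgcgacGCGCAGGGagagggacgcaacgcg
Rank 125, upstream of sdn-1, chrX:10596750-10596789, minus strand: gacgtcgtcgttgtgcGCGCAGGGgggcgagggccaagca
Rank 226, upstream of ins-39, chrX:1345040-1345079, plus strand: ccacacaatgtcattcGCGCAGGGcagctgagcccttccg
Rank 357, near F22H10.2, chrX:16682156-16682195, minus strand: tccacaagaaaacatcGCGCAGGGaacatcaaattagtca
Rank 435, in svh-5, chrX:15373947-15373986, plus strand: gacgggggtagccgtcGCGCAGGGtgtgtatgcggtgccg
Over the 16 core matches near the 14 summits, the base before the core was C in 13, and the base before that was T in 11. The base after the core was A in 10. T then C stood directly before 9 of the 16, a pattern looked at after the sequences had been read. Along the whole of X the core occurred 81 times (4.57 per Mb), and 22 of these (27.2%) fell inside a peak of the IDR list. The autosomes held it 233 times (2.82 per Mb), and 6 of those (2.58%) fell inside such a peak. Preceded by T then C, the core occurred 19 times on X and 6 times on the autosomes. An IDR peak covered 12 of the 19 on X and 0 of the 6 on the autosomes. The pooled list covered 14 of the 19 and 2 of the 6. The pattern was read from matches near summits of IDR peaks on X, so the coverage there partly repeats that choice.

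The core members ran from rank 6 to rank 482 of the 510. Their pooled signal value had a median of 257 (n = 14, range 133 to 484), against 182 for the 496 members without the core. Of the 14, 4 were among the 25 strongest X members and 5 among the 50 strongest. They lay farther from 5′ ends, with a median distance to the nearest protein-coding 5′ end of 2607 bp against 909 bp. Only 3 of 14 had the 5′ end of any gene within 500 bp, against 300 of 496 (60.5%). Their 200-bp windows held less G and C, with a median of 45% against 50.5%. In replicate 1 alone, its strongest peaks taken in the same number as the IDR list had the core at 10 of 466 X peaks and at 1 of 1384 autosomal peaks. In replicate 2 the counts were 16 of 493 and 0 of 1270.

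**Figure D1:**
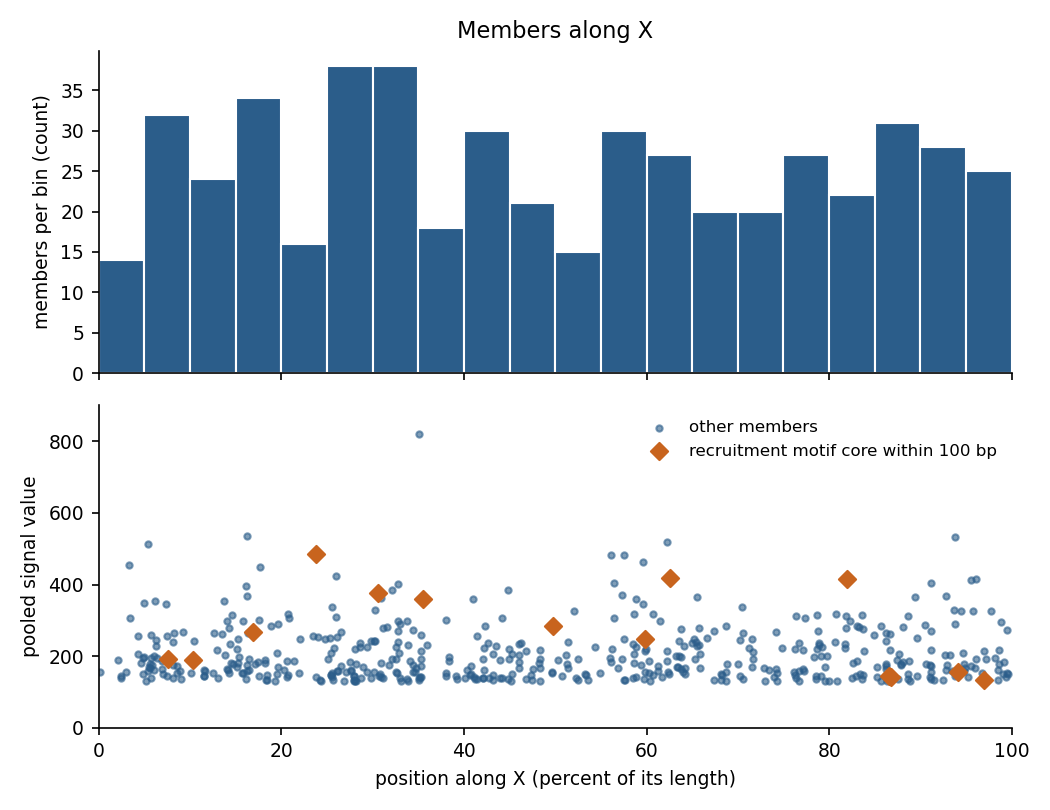
Upper panel, number of X members in each of 20 bins of equal length (y axis) by position along X in percent of its length (x axis). Lower panel, pooled signal value of each member by the same position, with the 14 members that hold the recruitment motif core as diamonds. Every bin holds between 14 and 38 members, and the core members are spread over X, with 5 of them among the 50 strongest members.

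The X members were dense along the chromosome. X carried 28.8 of them per Mb, against 15.7 per Mb over the autosomes, a ratio of 1.83. Single autosomes held 23.4 per Mb (I), 16.9 (II), 21.3 (III), 11.3 (IV) and 9.46 (V), so X had the highest density and chromosome I the next. X held 28.2% (interval 26.1 to 30.3) of the 1810 peaks away from small RNA genes on 17.7% of the nuclear genome. It has fewer protein-coding genes per Mb than the autosomes (154 against 209).

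The share of X depended on how strong the peaks were. In the pooled list, X held 32.5% (13 of 40) of the peaks away from small RNA genes among the 100 strongest peaks, 40.6% among the 500 strongest and 34.7% among the 1000 strongest. Below the IDR list it fell to 22.1% at 5000 peaks and 14.7% at 30000, where the list ends. Replicate 1 gave 35.6% at 500 peaks and 13.0% at 30000. Replicate 2 gave 37.3% and 16.9%. Both replicates thus had a larger share on X among strong peaks, and a share at or below the length of X among all listed peaks.

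**Figure D2:**
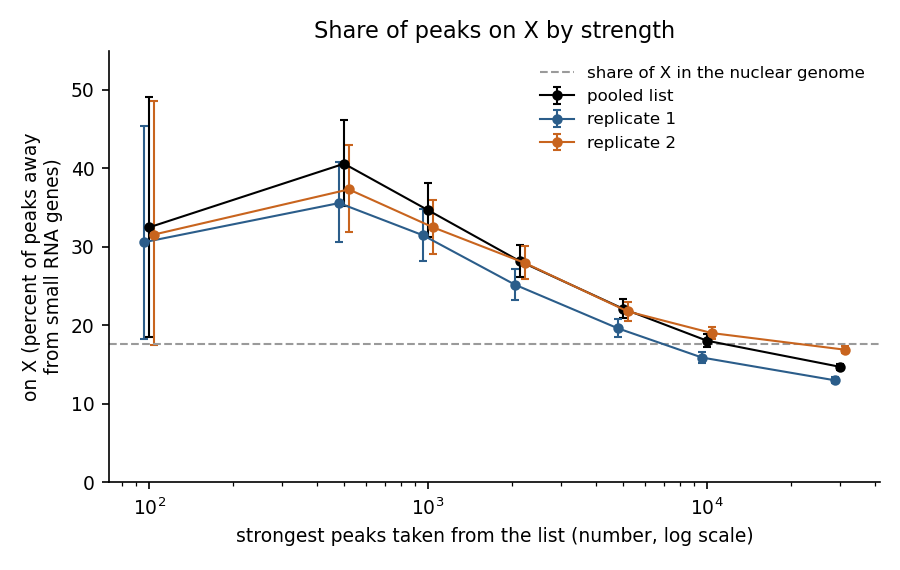
Percent of peaks over 500 bp from small RNA genes that lie on X (y axis) against how many of the strongest peaks were taken from each list (x axis, log scale, lists offset sideways for legibility). Points are shares, bars are exact binomial 95% intervals and the dashed line is the share of X in the nuclear genome, 17.7%. In all 3 lists the share is highest at 500 peaks and lowest at 30000.

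Members were found along the whole of X. From left to right, the 4 equal parts of the chromosome held 120, 145, 112 and 133 of them, with median signal values of 185, 174, 191 and 180.1. Bins of 5% of the chromosome held 14 to 38. The median distance between neighbouring summits was 16.2 kb, against 28.8 kb on the autosomes. The longest stretch without a member, 362 kb, lay near the left end of X (chrX:21183-382888). Some members were close together, since merging summits within 1 kb left 467 loci, and the 510 summits came from 506 distinct intervals.

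Above the limit of the IDR list, the pooled signal value of the X members had a median of 183 (binomial 95% interval 176 to 191) and ran from 130.2 to 819.6, with the middle 50% between 149.9 and 245. The autosomal peaks had a median of 165 (162 to 169), and those of single autosomes lay between 163 and 168. In replicate 1 the medians were 109 on X (n = 435) and 94.9 on the autosomes (n = 1209). In replicate 2 they were 83.9 (n = 509) and 78.8 (n = 1299). X was thus the higher in both replicates, by a margin small beside the spread of the peaks. The 82 X peaks left out for their distance to small RNA genes were stronger, with a median of 301. Most peaks had the same width of 440 bp (441 of 510), with a median signal value of 173. The 62 narrower ones had a median of 327 and the 7 wider ones 345.

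Most of the strongest members had the 5′ end of a gene within 500 bp, and so did most X members. The strongest (chrX:6207684-6208051) had a pooled value of 819.6, with 421 in replicate 1 and 397 in replicate 2. Its summit lay 30 bp downstream of the 5′ end of the non-coding RNA gene C14F11.14 and 178 bp upstream of that of T13C5.6. The next (536, with 290.1 and 246) lay at 3 non-coding RNA genes (F53B3.10, F53B3.11 and F53B3.12) and 351 bp upstream of vang-1, whose product is a Van Gogh homologue of planar cell polarity. The third (533, with 288 and 248) was intergenic, 885 bp upstream of ain-1, which encodes a GW182-like protein of the microRNA silencing complex. Rank 4 (520.0, with 276 and 251) lay inside ldb-1, a LIM domain binding factor, at the 5′ end of the non-coding gene F58A3.6. The first of these stood well above the others in both replicates, and the next 3 differed by less than their replicates did.

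The 120 bases around 6 summits of strong members are shown on the plus strand for their repeats, with runs of GAGAGA or CACACA, or their complements, in capitals.
Rank 1, at C14F11.14 and T13C5.6, chrX:6207805-6207924, plus strand: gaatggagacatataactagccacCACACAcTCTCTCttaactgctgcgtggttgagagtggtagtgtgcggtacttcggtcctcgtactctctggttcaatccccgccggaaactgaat
Rank 2, at vang-1, chrX:2885447-2885566, plus strand: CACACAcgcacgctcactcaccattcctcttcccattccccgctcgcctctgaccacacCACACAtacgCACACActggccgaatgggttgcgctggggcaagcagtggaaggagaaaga
Rank 3, upstream of ain-1, chrX:16612506-16612625, plus strand: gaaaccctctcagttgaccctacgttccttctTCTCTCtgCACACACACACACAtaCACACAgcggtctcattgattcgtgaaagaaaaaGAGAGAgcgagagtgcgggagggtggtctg
Rank 8, at tsp-21, chrX:9932463-9932582, plus strand: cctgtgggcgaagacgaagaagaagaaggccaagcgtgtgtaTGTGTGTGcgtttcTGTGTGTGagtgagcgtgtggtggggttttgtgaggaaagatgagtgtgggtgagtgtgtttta
Rank 11, upstream of spc-1, chrX:3127811-3127930, plus strand: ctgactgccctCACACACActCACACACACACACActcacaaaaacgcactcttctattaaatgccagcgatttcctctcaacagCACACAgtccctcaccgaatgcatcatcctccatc
Rank 24, at unc-115, chrX:10146716-10146835, plus strand: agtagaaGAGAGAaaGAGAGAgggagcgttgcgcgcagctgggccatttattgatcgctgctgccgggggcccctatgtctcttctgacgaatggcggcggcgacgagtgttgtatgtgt
The CA repeat was added after these sequences had been seen.

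The 5′ end of a gene lay within 500 bp at 17 of the 25 strongest members (68%), against 303 of all 510 (59.4%). A protein-coding one lay there at 10 of the 25 (40%), against 187 of the 510 (36.7%). The 10 included tsp-21 (482, with 268 and 215), a tetraspanin, and syd-2 (464, with 250.3 and 214), the liprin-alpha of presynaptic assembly. F13C5.2 had 455 (229 and 231). The others were ptrn-1 (416), which caps microtubule minus ends, kin-29 (396), a salt-inducible kinase, set-20 (385), a SET-domain gene, unc-115 (371), an actin-binding protein of axon guidance, and twf-2 (368), a twinfilin. In each of these 5 genes replicate 1 had the higher value.

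Another 7 of the 25 had only non-coding 5′ ends within 500 bp. Besides F58A3.6 in ldb-1, these included T13H2.7 and T13H2.9 (423). The nearest protein-coding start there, at 553 bp, was spat-3, a homologue of a Polycomb RING protein. C30E1.9 had 412. The member at F19C6.9 and F19C6.11 (405) lay 502 bp upstream of grk-1, which encodes a kinase of G protein-coupled receptors. F09C8.4 had 404, the F13D11.9 group 400.6 and C14F5.10 with C14F5.11 384. The remaining 8 were 6 intergenic members, an intron of myrf-2 (483), which encodes a myelin regulatory factor homologue, and a coding exon of pks-1 (377), a polyketide synthase. The intergenic ones lay nearest to ain-1, sms-2 (513), a sphingomyelin synthase, F20B6.9 (484), spc-1 (449), the alpha-spectrin gene, the tRNA gene W02H3.t1 (418) and nspc-17 (414). Of those 6, the members near F20B6.9, W02H3.t1 and nspc-17 held the recruitment motif core.

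Over all X members, 187 (36.7%, interval 32.5 to 41.0) had a protein-coding 5′ end within 500 bp, against 38.6% of the autosomal peaks. A further 116 (22.7%) had only the 5′ end of a non-coding RNA gene or pseudogene there, against 16.1%. Intergenic members, over 500 bp from any 5′ end and outside genes, numbered 125 (24.5%, against 21.9%). Introns held 62 (12.2%, against 15.1%) and coding exons 9 (1.76%, interval 0.81 to 3.32, against 3.85%, interval 2.87 to 5.04). The order of the classes depended on the window. With 200 bp in place of 500 bp, 18.4% of members were at protein-coding 5′ ends, 26.1% at ncRNA 5′ ends and 39.4% intergenic. Downstream flanks held 7, untranslated exons 3 and non-coding exons 1. The median signal value was 203 for intergenic members, 187 at protein-coding 5′ ends, 174 at non-coding ones, 169.6 in introns and 138 in coding exons. The median of the intergenic members was thus the highest of these 5 classes. Their median distance to a protein-coding 5′ end was 1859 bp, and 17 of the 125 lay over 5 kb away.

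Summits at protein-coding genes lay mainly upstream. Of the 187, 155 (82.9%) were upstream of the nearest protein-coding 5′ end, at a median offset of -190 bp. The autosomal peaks had 76.5% upstream and a median of -139 bp. In terms of genes, 192 of the 2731 protein-coding genes of X (7.03%) had a member summit within 500 bp of the 5′ end, against 613 of 17242 on the autosomes (3.56%). There were 7 X genes with 2 or more summits.

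**Figure D3:**
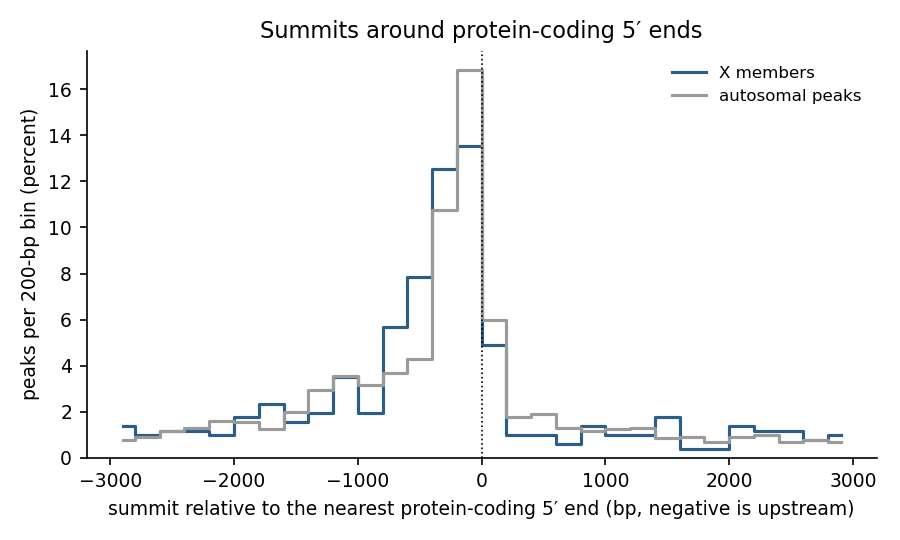
Percent of peaks in each bin of 200 bp (y axis) by the position of the summit relative to the nearest protein-coding 5′ end (x axis, bp, negative upstream), for the 510 X members and the 1300 autosomal peaks. Both peak just upstream of the 5′ end, and the X members extend farther upstream, with a median offset within 500 bp of -190 bp against -139 bp.

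Unclassified non-coding RNA genes, annotated as ncRNA with no further class, had a 5′ end within 500 bp at 154 X members (30.2%), against 19.7% of the autosomal peaks. Counted by gene, this was 216 of 2520 such genes on X (8.57%) and 340 of 5244 on the autosomes (6.48%). X thus carries many more such genes for its length, and the higher share at members moved with that number, whose part in the difference was not tested. At 41 members both a protein-coding and an ncRNA 5′ end were near. Of 162 piRNA genes, 6 had a member, of 38 lincRNA genes 3 (linc-54, linc-78 and linc-33, signal values up to 277), and of 178 pseudogenes 0.

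The 16 lists of gene families were read against the 7.03% of all protein-coding genes of X. Members stood at 23 of the 259 listed X genes (8.88%), and at 10 with a window of 200 bp around the 5′ ends. Of 7 sex determination and dosage compensation genes, 2 had one. These were sdc-2 (238, with 101 in replicate 1 and 128 in replicate 2, 413 bp upstream), whose product directs the complex to X, and ceh-39 (244, with 160 and 85.1), a homeobox gene that serves as an X signal in sex determination. All 3 translation factors of X had a member (interval 29.2% to 100%), although only 1 did within 200 bp of the 5′ end. They were eef-1A.2 (308), an elongation factor, and ife-4 (227) and ife-2 (189.9), which encode cap-binding proteins. So did 1 of 2 ribosomal protein genes (rpl-11.2, 264) and 1 of 4 histone genes (his-24, 233, a linker histone). Within 200 bp of the 5′ end, 0 ribosomal protein genes and still 1 histone gene had a member. Of the sex determination and dosage compensation genes, 1 did.

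Among 64 developmental transcription factors, 7 had a member (10.9%, interval 4.51 to 21.2), led by the nuclear receptor gene nhr-1 (294) and followed by ceh-39, nhr-32 (224) and lin-15B (187). Members stood at 2 of 5 chaperone genes, dnj-14 (268) and hsp-3 (175), and at 2 of 11 genes for GTPases and egg-laying factors, rab-14 (282) and rab-6.2 (191). They also stood at 1 of 2 let genes, let-4 (299), and at 2 of 10 muscle genes, the actin gene act-4 (145) and the myosin light chain gene mlc-2 (134). The muscle count rested on the libraries and on weak peaks, as it was 0 from replicate 2's list alone, 1 from replicate 1's and 0 in the strongest 50% of the IDR list. Channel, receptor and unc genes had 3 of 54, which were unc-115, acr-12 (139.9) and unc-84 (132). With a 200-bp window, the counts were 2 for transcription factors, 1 for chaperones, 0 for GTPases and egg-laying factors and 1 for muscle. Those for let genes and for channel, receptor and unc genes did not change. No member stood at any of 27 collagens, 34 neuropeptide and insulin genes, 33 chemoreceptor genes, 4 ubiquitin and proteasome genes or 3 C-type lectins. From replicate 1's list alone, 1 collagen gene and both let genes had one. By the exact interval, a count of 0 allows up to 12.8% of the collagens, 10.3% of the neuropeptide genes and 10.6% of the chemoreceptors, each above 7.03%. The list of FACT and elongation genes has no member on X.

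In 16 places 3 or more members lay close together, with 58 members in all. Each place held 3 neighbouring summits that spanned at most 5 kb, and such runs within 5 kb of each other were joined. The heaviest held 5 members between chrX:5812166-5821054, with a summed signal value of 1418 and single values of 208 to 400.6, near F13D11.3 and hbl-1, a Hunchback homologue of developmental timing. Other groups of 5 lay at F09C8.2 (summed 1186), at jud-4 and kin-20 (1024), the latter a casein kinase 1 homologue of developmental timing, and at sdn-1 (1006), which encodes syndecan. The group at W05H9.4 had 4 members (721). The 3 weakest members all lay between chrX:4957221-4998155, at M03F4.4 (130.3), at the non-coding genes M03F4.12 and M03F4.13 (130.3) and at ZC8.6 (130.2).

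The replicates did not list the X members equally. Replicate 2's list held a peak at 509 of the 510, and replicate 1's list at 435 (85.3%, interval 81.9 to 88.3). Of the autosomal peaks, replicate 1 held 93.0%, between 89.9% on V and 94.9% on IV. The share on X was lowest in the part of the chromosome just right of its middle (76.8%) and highest in the rightmost of the 4 equal parts (91.7%). Among intergenic members it was 80.8%.

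The 75 members missing from replicate 1's list were not weak. Their median pooled value was 177, against 184 for the 435 present, and their median in replicate 2 was 83.9 in both cases. Where a member was present in both replicates, the pooled value was about their sum, with a median ratio of 1.00 (n = 434). For the 75, the pooled value less that of replicate 2 had a median of 99.6 (43.6 to 193). All 75 differences exceeded 21.6, the lowest value that replicate 1 listed. Among members that replicate 1 did list, the same difference had a median of 105 but ran from -265 to 423. It can thus be far off for a single member. Of the 75, 10 had a replicate 1 summit within 1 kb. Why they are missing was not tested.

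The 5 strongest missing members were all intergenic. Rank 13, near W02H3.t1 and with the core, had 418 pooled and 242 in replicate 2. The next lay 2541 bp upstream of hda-4 (327, replicate 2 148), a class II histone deacetylase gene, and 915 bp upstream of mgrn-1 (319, replicate 2 152). The remaining ones were near H01M10.2 (315, replicate 2 122) and K02D3.5 (306, replicate 2 139.6), the last of which held the variant of the core. Replicate 1's list held 10 of the 14 core members and 7 of the 13 with the variant. The single member missing from replicate 2 lay at the piRNA gene 21ur-14279 (138, replicate 1 95.4).

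Where both replicates had a peak, replicate 1 was usually the higher. The median ratio of replicate 1 to replicate 2 was 1.27 on X (interval 1.23 to 1.31, n = 434), above 1 at 361 members (83.2%), and 1.22 on the autosomes (n = 1208), above 1 at 73.0%. At the 10 core members with both values the median ratio was 1.02 and 5 were below 1, against 1.28 and 68 of 424 for the other members. The correlation of the values across peaks was r = 0.82 (Spearman 0.67) over 434 X members and 0.70 (0.40) over 1208 autosomal peaks. This describes peaks that share the libraries and the control, and peaks are not replicates. Each replicate value is that of the strongest overlapping peak, so close neighbours can share one, as at nhr-48 (135 pooled, 171 and 138 in the replicates), named here after its values had been seen.

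**Figure D4:**
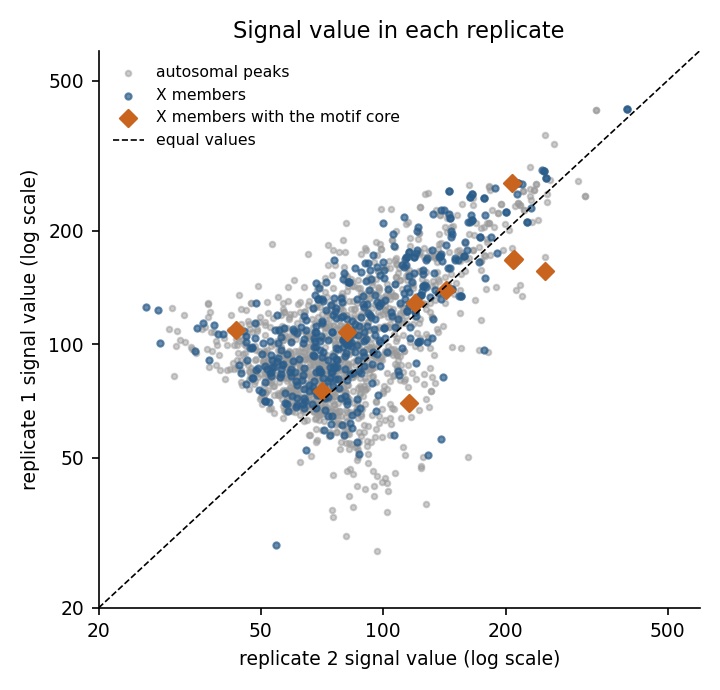
Signal value in replicate 1 (y axis, log scale) against replicate 2 (x axis, log scale) for each peak listed in both, with autosomal peaks in grey, X members in blue, the 10 X members with the motif core and both values as diamonds, and a dashed line at equal values. Most points lie above the line, with a median ratio of 1.27 on X, while 5 of the 10 core members lie below it, 2 of which (ranks 23 and 30) nearly coincide.

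The sequence around the summits was rich in G and C and in short repeats. The median GC content of the 200-bp windows was 50.5% on X and 48.5% on the autosomes, while windows of the whole of X had a median of 34.5%, and 2.40% of them reached 50.5%. Summits in sequence that the genome file masks as repetitive numbered 48 (9.41%), against 30.6% of the bases of X.

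GAGAGA stood in 42.4% of X members, in 48.1% of autosomal peaks and in 9.52% of the windows of X. CACACA stood in 40.0% of X members (interval 35.7 to 44.4), in 31.8% of autosomal peaks (29.3 to 34.5) and in 9.48% of the windows. The CA repeat was at 204 of 510 members, 54 of the 100 strongest, 34 of the 50 strongest and 19 of the 25 strongest. It was added after sequences of the strongest members had been read, so this rise partly repeats that choice. The GA repeat, chosen beforehand, was at 43 of the 100, 21 of the 50 and 14 of the 25 strongest. Either repeat was at 334 X members (65.5%), at 60.6% of autosomal peaks and in 17.9% of the windows of X.

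CACGTG, the E box, was in 5.10% of members, 5.23% of autosomal peaks and 2.64% of the windows. GGTTCGA, letters of the B box inside tRNA genes, was in 2.75%, 1.38% and 1.32%. The strongest member held a looser form of that box, GTTCNANNC, looked for after its sequence had been read, but that form was no more frequent at X members (5.88%) than at autosomal peaks (5.92%) or in the windows of X (7.76%). The 3 motifs richer in A and T were less frequent at members than in the windows. TTTCAG, the splice acceptor, was in 5.69% of members, 13.2% of autosomal peaks and 31.4% of the windows. TGATAA, bound by GATA factors, was in 3.73%, 5.69% and 19% respectively. TATAAA, the TATA box, was in 6.08%, 6.46% and 22.7%. GC content moved with these differences from the windows, and its part in them was not tested. A match is a run of letters and does not show that a factor binds there.

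**Figure D5:**
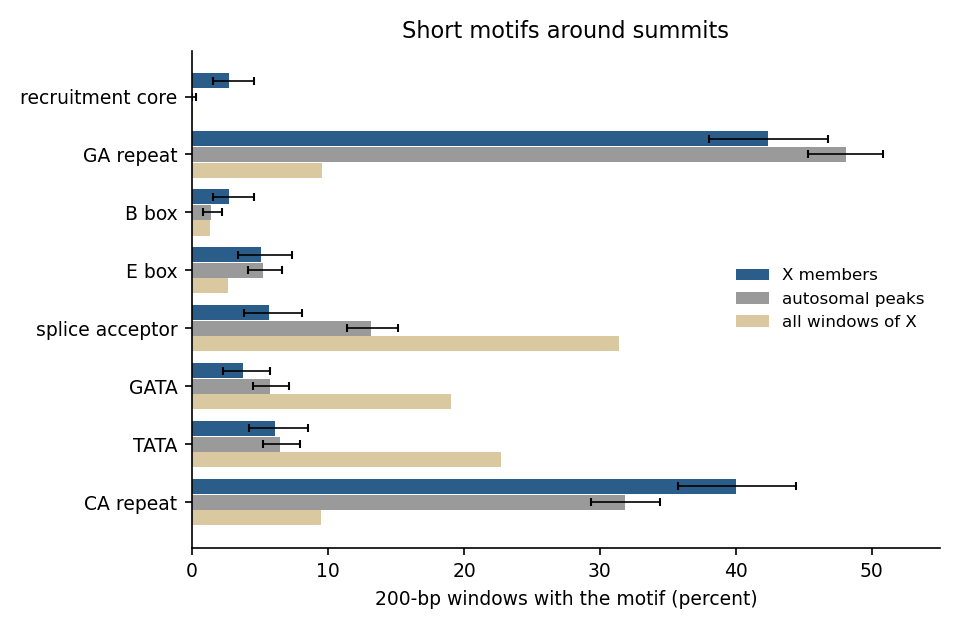
Percent of 200-bp windows with each of 8 motifs (x axis) for X members, autosomal peaks and all windows of X, with exact binomial 95% intervals as bars on the first and second. The GA and CA repeats stand in 42.4% and 40.0% of X members, and the recruitment core in 2.75% of X members and in 0 autosomal peaks, with a bar for the windows of X (0.0869%) too short to see.

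Close to the 500-bp limit of the rule, the nearest peaks left out lay 386 bp from M163.t1 (signal value 186), 331 bp from cel-mir-56 (368) and 329 bp from F52H2.t1 (187). The nearest members lay 529 bp from cel-mir-62 (211), 529 bp from cel-mir-47 (144) and 603 bp from F22F1.t7 (233).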

How the data were processed

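The data were 4 peak lists from 2 samples in 1 group, on build ce11. The text files deposited with the lists state that the authors called peaks per replicate and on both replicates pooled, each against a control alignment shared by the replicates. They then thresholded the pooled peaks by IDR. For the aligner, the peak caller, the scale of its values and the threshold of the IDR step nothing is given in the sources used here. The depth is unknown, so no interval for a single peak can be given. The signal value of each peak is deposited as the authors' enrichment measure. The −log10 q-value column was deposited beside it (median 2.70 over the X members) and chose no peak. The deposited offset gave the summit. The p-value column holds no p-values.

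Genes and biotypes were those of Ensembl release 115 (WBcel235), with names of non-coding genes added from RefSeq. Distances run from summits to gene 5′ ends, and peaks of different lists were matched by an overlap of at least 1 bp. Shares carry exact binomial intervals and medians order-statistic intervals, at 95%. The share of windows holding a motif is over 200-bp windows laid end to end. Values were computed with Python 3.11.15, numpy 2.4.6, pandas 2.3.3 and scipy 1.17.1, and drawn with matplotlib 3.10.9, after the functions had been tested on simulated data. The X members, gene lists and motifs were chosen with earlier results of these data known, so none of them is independent support for a pattern.

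The rule for named genes took those at the 25 strongest members, up to 4 per list, those at up to 5 members missing from a replicate, those at 5 groups of close members, the 3 weakest members and the 3 peaks on each side of the distance limit. Members with the core or its variant are named beside their sequences and were chosen after their values had been seen. The alternatives changed the distance, the window, the summit, the overlap, the peak list and the replicate.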

Additional observations from a re-analysis of the deposited data

How the results depend on the processing

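Of 162 recomputed values, 62 of the 87 summaries and 59 of the 75 counts for single gene lists stayed within the set margins, and 25 and 16 moved. These are counts, shares, medians and ratios, so they tested no direction. The strongest 50% of the IDR list left 278 X members, an X share of 33.8%, 111 X protein-coding genes, 15 listed genes and the CA repeat at 47.1%. A 200-bp window around 5′ ends gave 18.4% of members at protein-coding and 26.1% at ncRNA 5′ ends, 39.4% intergenic, 91 genes and 10 listed genes, and a 1000-bp window gave 50.4% and 14.5% intergenic. A reciprocal overlap of 50% put 81.0% of members in replicate 1 and 91.8% in replicate 2, and summits within 100 bp put 96.1% in replicate 2. The median signal value was 109 from replicate 1 and 83.9 from replicate 2. The median GC content was 46.5% in 400 bp and 45.9% over the whole peak. In 400 bp the GA repeat reached 58.6%, the CA repeat 52.7%, the splice acceptor 19.6%, GATA 16.3% and TATA 20.6%. Taken from 1 replicate's list alone, X members numbered 466 to 493, the X share was 25.2% to 28.0%, protein-coding 5′ ends 34.1% to 38.3%, ncRNA 5′ ends 28.8% to 33.9%, intergenic 22.7% to 24.9%, genes 164 to 191 and listed genes 19 to 21. The CA repeat, the variants of the core and of the B box and the bases beside the core were chosen after seeing the data. Only 2 replicates and no depth limit what can be said of single peaks. No paired analysis was possible because there is 1 group.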
